A study of Rattus norvegicus with 8 samples.

Results

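The Notch family was followed in rat OPC cultures, where OPC stands for oligodendrocyte precursor cell, a dividing glial cell from which myelin-forming oligodendrocytes arise. It was taken as the 4 receptors Notch1 to Notch4, the ligands Dll1, Dll3, Dll4, Jag1 and Jag2, and Rbpj, the DNA-binding partner of the receptors, by matching these 10 symbols in the deposited table. The symbols gave 11 of the 32883 rows, because Rbpj is the symbol of 2 rows (ENSRNOG00000046327 and ENSRNOG00000007797). RNA was sequenced from 8 cultures, 4 labelled male and 4 labelled female, to ask how the sexes differ. Both groups were Sprague Dawley cerebral cortex cells, from rat pups 1 to 2 days of age, with no genetic change named. Mixed glia were first kept in medium with 20% serum, and the cells that did not adhere were then grown for 4 to 5 days with PDGF and FGF at 10 ng/ml each and the B27 supplement (2%). Nothing in the labels says which cultures came from separate litters or pooled pups, so a p-value here reflects the spread among these 8 samples alone, which may be technical.

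Notch receptors sit in the cell membrane and are switched on by ligands on a neighbouring cell. Binding lets an ADAM protease and then the gamma-secretase complex cut the receptor, and the freed intracellular part enters the nucleus, joins Rbpj and Mastermind coactivators, and turns on genes of the Hes and Hey repressors. In OPCs, Notch1 signalling is known for holding back differentiation into myelinating cells.

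Promoter sequences are shown for the receptor and the ligand whose levels in the 2 sexes did not overlap (Notch1 and Dll1), for Dll3, the next most abundant ligand, whose values did overlap, and for the classic Notch target genes Hes1 and Hes5. Each is the 250 bases before the annotated start, 5′ to 3′ on the gene's strand, from RefSeq on build GRCr8. Capitals mark TGGGAA, the core letters bound by Rbpj, or its reverse complement TTCCCA. The windows are chr3:29721614-29721863 (Notch1), chr1:64993275-64993524 (Dll1), chr1:92697317-92697566 (Dll3) and chr11:84213046-84213295 (Hes1), all on the minus strand, and chr5:170804327-170804576 (Hes5) on the plus strand.
Notch1: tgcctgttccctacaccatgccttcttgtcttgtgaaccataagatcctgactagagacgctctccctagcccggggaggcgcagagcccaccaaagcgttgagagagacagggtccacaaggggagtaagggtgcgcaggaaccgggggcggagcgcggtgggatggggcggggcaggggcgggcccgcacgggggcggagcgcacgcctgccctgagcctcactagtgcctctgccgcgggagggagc
Dll1: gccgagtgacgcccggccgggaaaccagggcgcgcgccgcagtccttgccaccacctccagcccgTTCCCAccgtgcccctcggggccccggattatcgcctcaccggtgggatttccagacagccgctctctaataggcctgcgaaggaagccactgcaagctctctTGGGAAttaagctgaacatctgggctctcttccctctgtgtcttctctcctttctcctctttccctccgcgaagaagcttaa
Dll3: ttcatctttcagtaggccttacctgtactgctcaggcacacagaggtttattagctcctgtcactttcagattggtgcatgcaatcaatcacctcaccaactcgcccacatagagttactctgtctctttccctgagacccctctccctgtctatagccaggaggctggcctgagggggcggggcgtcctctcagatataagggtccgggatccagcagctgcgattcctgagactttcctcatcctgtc
Hes1: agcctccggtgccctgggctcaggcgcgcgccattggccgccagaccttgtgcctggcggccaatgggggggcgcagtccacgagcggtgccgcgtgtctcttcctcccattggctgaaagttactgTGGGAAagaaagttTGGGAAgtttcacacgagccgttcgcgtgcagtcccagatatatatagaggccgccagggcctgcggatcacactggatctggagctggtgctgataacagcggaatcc
Hes5: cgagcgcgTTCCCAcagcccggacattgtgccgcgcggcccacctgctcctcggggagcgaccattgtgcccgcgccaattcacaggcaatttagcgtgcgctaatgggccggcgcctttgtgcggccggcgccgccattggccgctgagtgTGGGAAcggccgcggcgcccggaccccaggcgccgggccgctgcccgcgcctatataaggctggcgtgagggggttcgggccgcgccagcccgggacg
The Dll1, Hes1 and Hes5 windows each held 2 such matches, and the Notch1 and Dll3 windows held 0. In Dll1 they began 185 and 82 bases before the start, in Hes1 123 and 109 bases before it, and in Hes5 242 and 98 bases before it. Of 33469 rat promoter windows of this length, 22.1% held at least 1 match on either strand and 2.71% held 2 or more. RefSeq gave windows for 9 of the 10 members, and 3 of them (Notch4, Dll1 and Rbpj) held a match. The Notch4 window also held 2. Of the 2 Rbpj windows, which share bases, 1 held 1 match and the other 2. Among target genes not shown, the Hey2 window held 2 and the Heyl window 0. The 22.1% and 2.71% above are shares of windows, not of genes. The E-box letters CAGCTG, read the same on both strands and sharing no base with the matches above, lay 34 bases before the start of Dll3 and in no other member's window, against 4007 of the 33469 windows. These matches are letters in a window and do not show that a factor binds there.

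Levels are the authors' FPKM (fragments per kilobase of transcript, scaled to library size), which divides by length and so lets genes be compared with each other. By mean over the 8 cultures the order of the FPKM levels was Rbpj (34.8), Notch1 (16.7), Dll1 (15.9), Dll3 (9.58), Jag1 (3.97), Jag2 (1.54), Notch2 (1.44), Notch3 (0.267), Notch4 (0.186), the second Rbpj row (0.181) and Dll4 (0.0724). Rbpj was above Notch1, Dll1 above Dll3, Dll3 above Jag1, Jag1 above Jag2 and Notch2 above Notch3 in 8 of 8 cultures. Notch1 was above Dll1 in 5 of 8, Jag2 above Notch2 in 5 of 8 and Notch3 above Notch4 in 5 of 8, so these neighbours were not separated beyond the spread between cultures. The last 3 rows of this order crossed each other as well.

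The sexes were compared on log2(FPKM + 1), where the change of low genes is understated. Each log2 difference has the female mean subtracted from the male one, so that values below 0 are higher in female cultures, and ± marks its standard error. They come from limma-trend, a linear model fitted over the 11263 genes whose mean reached 1 FPKM, with Benjamini-Hochberg adjustment over these genes. Genes with an adjusted p under 0.05 are called. Of the 11 rows, 7 passed the level filter and 4 did not (Notch3, Notch4, Dll4 and the second Rbpj row). Of these 7 rows 1 was called (14.3%), Notch1, higher in female cultures, against 6.04% of all tested genes (2.89% higher in female and 3.14% in male cultures). The values of the sexes did not overlap for 2 of the 7, Notch1 and Dll1, both higher in female cultures, against 14.0% of all tested genes (6.77% higher in female and 7.26% in male cultures). With 7 rows a single gene makes 14.3%, so these shares carry little weight.

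**Figure D1:**
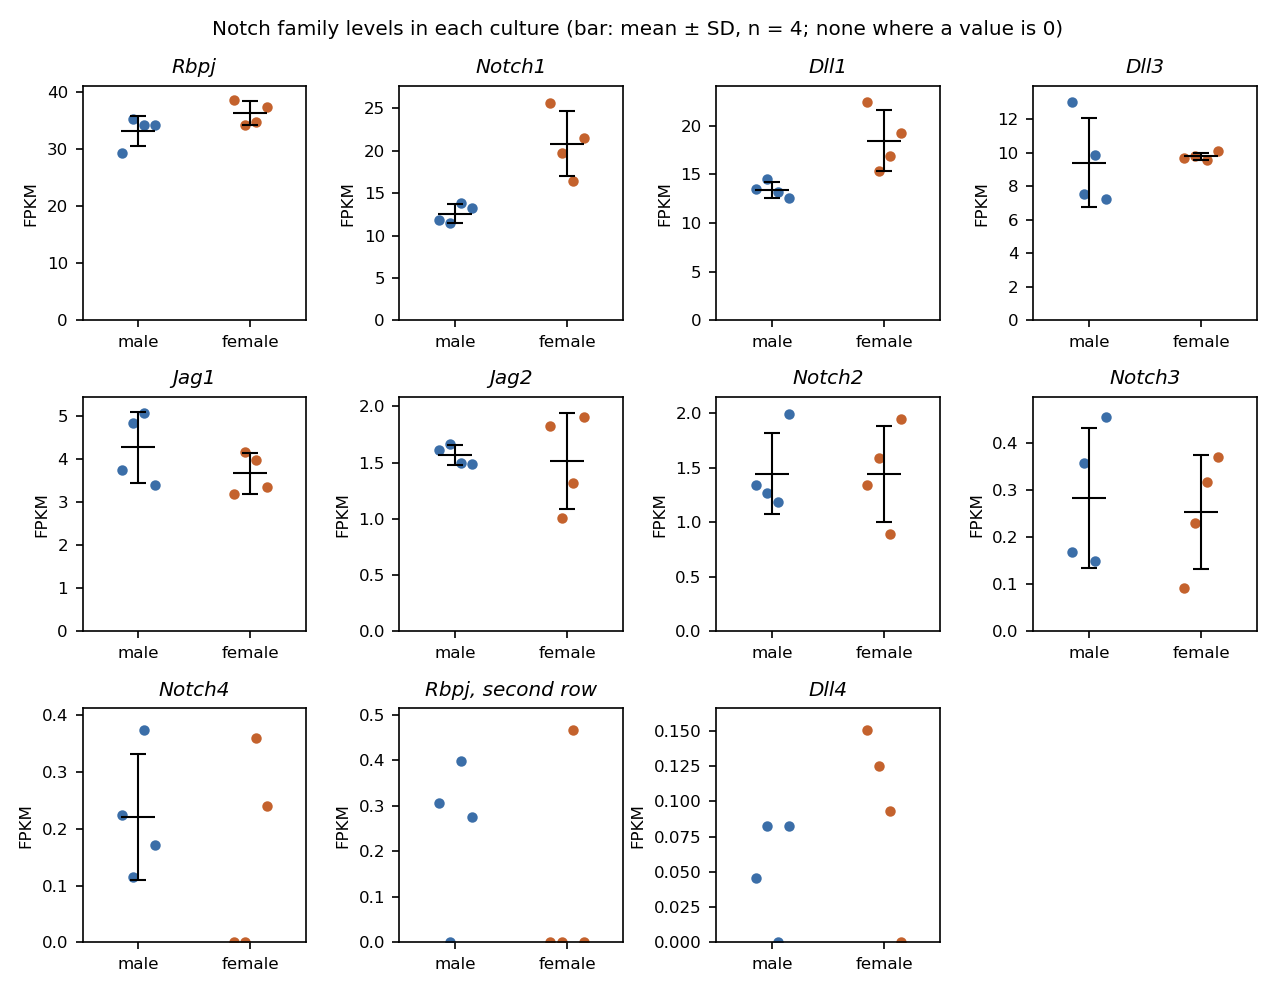
FPKM (vertical axis, from 0, a separate scale in each panel) of the 11 Notch family rows in the 4 male and 4 female cultures. Points are cultures and bars are mean ± SD, left out where a value is 0. Female points lie above all male points for Notch1 (16.4 to 25.6 against 11.4 to 13.9) and Dll1 (15.3 to 22.4 against 12.5 to 14.5), and the sexes overlap in the other panels.

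Of the receptors, Notch1 was the abundant one and was higher in female cultures. Notch1 (ENSRNOG00000019322) stood at 11.8, 11.4, 13.9 and 13.2 FPKM in the male cultures 1 to 4 and at 25.6, 19.8, 16.4 and 21.6 FPKM in the female cultures 1 to 4. Every female culture was above every male one, and the female values were the more spread out. The means were 12.6 ± 1.15 FPKM (SD, n = 4) in male and 20.8 ± 3.83 FPKM in female cultures, a ratio of 1.66 female to male (log2 difference -0.67 ± 0.13, limma-trend adjusted p = 0.0133). Female 1 had the highest Notch1 level and also the shallowest library, and without it the difference was -0.57 (adjusted p = 0.0305). Of the microglia markers 8 of 10, and of the OPC markers 4 of 8, were also called higher in female cultures (summed levels are given with the marker lists), and their part in the Notch1 difference was not tested. In bulk RNA of this kind, fewer cells of a type and less RNA per cell cannot be told apart.

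Notch2, a receptor with a similar build, was at a much lower level and showed no such separation. Its level was 1.34, 1.26, 1.19 and 1.99 FPKM in the male cultures 1 to 4 and 1.34, 1.59, 0.893 and 1.95 FPKM in the female cultures 1 to 4. Male 4 and female 4 were the highest cultures and female 3 the lowest, so the sexes overlapped. The log2 difference was 0.0091, with a 95% interval from -0.45 to 0.47 (adjusted p = 0.987).

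Notch3 and Notch4, receptors best known from vessel wall and endothelial cells, were near the floor of the libraries. Notch3 was listed at 0.169, 0.357, 0.150 and 0.455 FPKM in the male and at 0.0927, 0.230, 0.316 and 0.370 FPKM in the female cultures. Notch4 was listed at 0.224, 0.116, 0.374 and 0.172 FPKM in the male cultures, at 0 in female 1 and female 2, and at 0.359 and 0.240 FPKM in female 3 and female 4. The zeros fell in the 2 shallowest libraries. Low values in this table move in steps, as they would if each step were 1 fragment. If the smallest Notch3 value is 1 step, its 8 values amount to 48 steps, and the Notch4 values come to 36 steps if their smallest is 2 steps, since other values fall between its whole multiples. Endothelial markers were at or near 0 (7 of 8 found in the table, 3 of these at 0 in every culture, none above 0.277 FPKM). Of the 8 mural markers, Tagln was the most abundant, at 2.05 to 3.66 FPKM in male and 0 to 0.895 FPKM in female cultures, and Myh11 was above 0 in all 8 cultures (0.303 to 1.16 FPKM). Acta2 reached 2.05 FPKM in male 4, Rgs5 1.92 FPKM in female 1 and Abcc9 0.207 FPKM in female 1. Pdgfrb was above 0 in female 1 alone (0.212 FPKM), and Kcnj8 and Des were at 0 throughout.

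The receptor pool as a whole therefore followed Notch1. Summed over the 4 receptors it came to 13.2 to 15.8 FPKM in male and 18.0 to 27.1 FPKM in female cultures. Notch1 made up 86.6 ± 2.31% of this sum in male and 91.7 ± 2.19% in female cultures, between 83.5 and 94.7% in single cultures. These shares follow from the Notch1 levels above and were not tested.

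**Figure D2:**
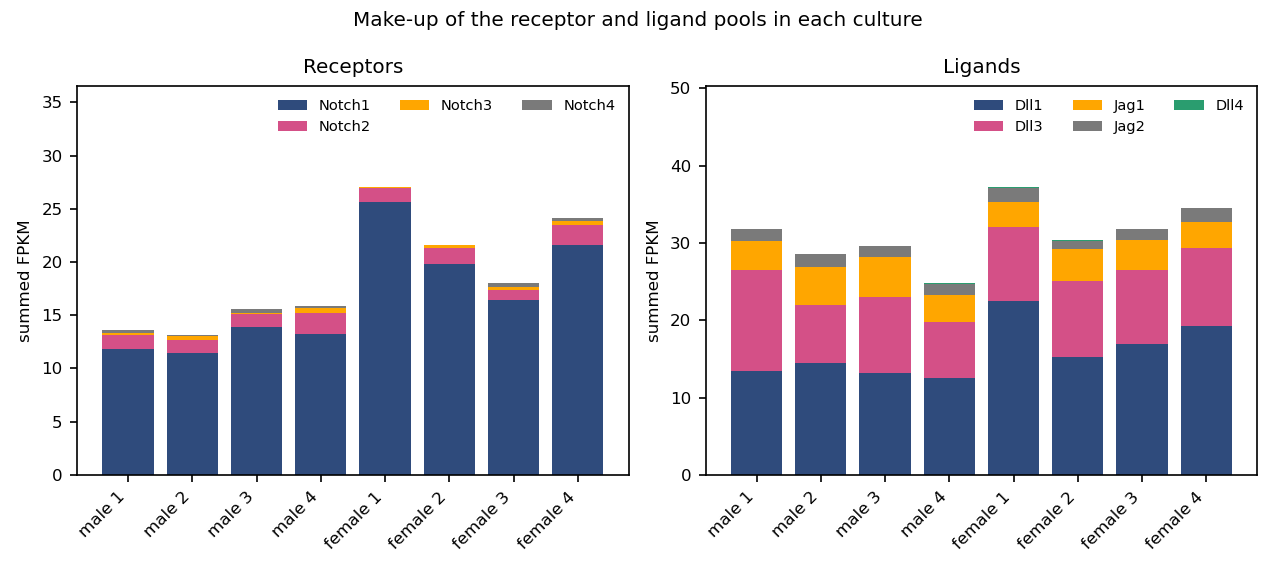
Summed FPKM (vertical axis, from 0) of the 4 receptors (left) and 5 ligands (right) in each of the 8 cultures, stacked by gene. Notch1 fills 83.5 to 94.7% of the receptor bars, and Dll1 and Dll3 together fill most of each ligand bar.

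Among the ligands, Dll1, which activates receptors on neighbouring cells, was the most abundant. Dll1 (ENSRNOG00000059984) stood at 13.4, 14.5, 13.2 and 12.5 FPKM in the male cultures 1 to 4 and at 22.4, 15.3, 16.9 and 19.2 FPKM in the female cultures 1 to 4. Again all female cultures lay above all male ones, though male 2 and female 2 were close, and female 1 and female 4 were the top cultures for both Dll1 and Notch1. The means were 13.4 ± 0.811 and 18.5 ± 3.10 FPKM, a female to male ratio of 1.38. The log2 difference of -0.42 ± 0.12 missed the threshold (limma-trend adjusted p = 0.0644), with a 95% interval from -0.68 to -0.16. Dll1 was called with female 2 left out (-0.50, adjusted p = 0.0400) and in no other fit at this threshold.

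Dll3, a ligand that acts inside the cell that makes it and does not activate receptors on neighbours, was the next most abundant. Its level was 13.0, 7.51, 9.86 and 7.24 FPKM in the male cultures 1 to 4 and 9.66, 9.78, 9.55 and 10.1 FPKM in the female cultures 1 to 4. Male cultures held both the highest and the lowest values, and the female cultures were nearly equal (SD 0.227 FPKM against 2.66 FPKM in male cultures). The log2 difference was -0.083, with an interval from -0.44 to 0.27 (adjusted p = 0.826), and it turned just above 0 without male 2 or without male 4 (0.0015 and 0.017).

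Dll1 exceeded Dll3 in each culture, by factors from 1.04 in male 1 to 2.32 in female 1. Dll1 made up 47.0 ± 4.32% of the summed ligand FPKM in male and 54.8 ± 4.19% in female cultures, and Dll3 32.4 ± 6.29% and 29.3 ± 2.60%. The ranges of both shares overlapped between the sexes. The ligand sum was 24.8 to 31.9 FPKM in male and 30.4 to 37.2 FPKM in female cultures, so the sums overlapped too.

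The Jagged ligands were lower. Jag1, the ligand that axons present to oligodendrocyte lineage cells, stood at 3.75, 4.84, 5.08 and 3.41 FPKM in male and at 3.18, 4.16, 3.99 and 3.35 FPKM in female cultures. Male 2 and male 3 were above the other 6 cultures, and the rest were mixed. Its log2 difference was 0.17 ± 0.16, with an interval from -0.18 to 0.51 (limma-trend adjusted p = 0.598).

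Jag2 stood at 1.61, 1.67, 1.50 and 1.49 FPKM in male and at 1.82, 1.01, 1.32 and 1.90 FPKM in female cultures. Female cultures lay on both sides of the male ones (log2 difference 0.047, interval -0.37 to 0.46, adjusted p = 0.919), and the sign turned without female 2 (-0.055). Dll4, best known from sprouting vessels, was the lowest member. It was listed at 0 in male 3 and female 4 and at 0.0457 to 0.151 FPKM in the other 6 cultures, a total of 7 steps over the 8 libraries if its smallest value is 1 step.

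Rbpj (ENSRNOG00000046327), which all 4 receptors need to reach their target genes, was the most abundant member. It stood at 29.4, 35.2, 34.2 and 34.2 FPKM in the male cultures 1 to 4 and at 38.6, 34.3, 34.8 and 37.4 FPKM in the female cultures 1 to 4. Male 1 was the lowest and female 1 the highest culture, and the other 6 lay between 34.2 and 37.4 FPKM. The log2 difference was -0.13 ± 0.083, with an interval from -0.31 to 0.057 (limma-trend adjusted p = 0.434). The second row with this symbol was listed at 0 in male 2, female 1, female 2 and female 4 and at 0.275 to 0.467 FPKM in the other 4 cultures. What sets the 2 Rbpj rows apart is not given in the table, and reads that fit both could be split between them.

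No row below the level filter was called in a fit without it, with limma-trend adjusted p from 0.640 to 0.913.

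**Figure D3:**
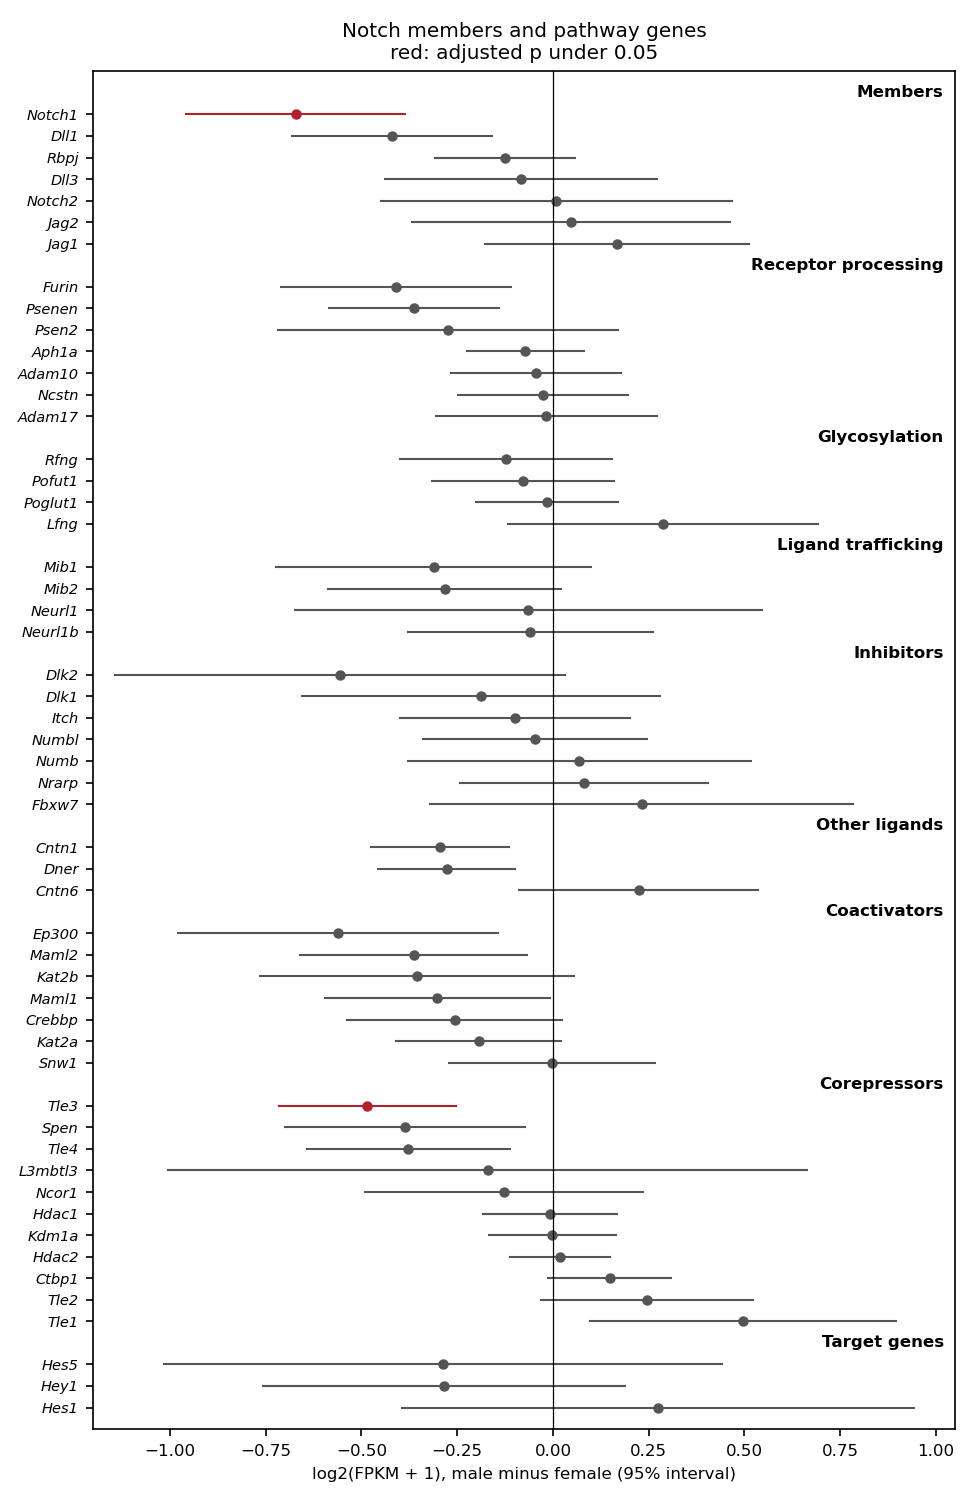
Log2 difference, male minus female, with its 95% interval (horizontal axis) for the 7 tested Notch family rows and the tested pathway genes that are reported here, grouped by role. Red marks the 2 genes with an adjusted p under 0.05, Notch1 (-0.67) and Tle3 (-0.48), and points left of 0 are higher in female cultures.

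The other pathway genes formed 8 lists with 53 genes, of which 51 were in the table and 48 passed the level filter. One was called, Tle3, higher in female cultures, which is 2.08% against 6.04% of all tested genes. At an unadjusted p under 0.05 there were 12 (25.0%, 1 of them towards male), against 21.2% of all tested genes. The sexes did not overlap for 16.7% of the 48, 7 genes higher in female and 1 in male cultures. Of all tested genes 14.0% did not overlap (6.77% higher in female and 7.26% in male cultures). Differences were below 0, towards female cultures, in 38 of the 48 (79.2%) against 50.7% of all tested genes. Their median was -0.12 against -0.0038. Female 1 was the highest culture for 21 of the 48 (43.8%) against 20.8% of all tested genes. Leaving female 1 out gave a median of -0.066, with 33 differences below 0 and 15 above. The counts were the same without male 1 and without female 4, with a median of -0.11 in each. Over all single omissions the median lay between -0.17 (female 2) and -0.066 (female 1). With library depth in the model, 31 were below and 17 above 0 (median -0.084). The part of the microglia and OPC marker differences in these counts was not tested.

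None of the 8 tested genes that cut the receptor was called by limma-trend, and 2 had an unadjusted p under 0.05. The gamma-secretase subunit gene Psenen stood at 107 ± 13.2 FPKM in male and 138 ± 15.0 FPKM in female cultures (-0.36 ± 0.10, adjusted p = 0.0597). Furin, the protease that first cleaves the receptor in the secretory pathway, stood at 4.70 ± 0.286 and 6.61 ± 1.09 FPKM without overlap (-0.41 ± 0.14, adjusted p = 0.110). Psen2, a catalytic subunit of gamma-secretase, had a difference of -0.27 (adjusted p = 0.487). The protease gene Adam10 and the gamma-secretase genes Ncstn and Aph1a, picked after their values were seen, lay between 30.6 and 51.4 FPKM, with differences from -0.072 to -0.026.

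Among 4 tested genes for sugars on the receptor, none was called and none had an unadjusted p under 0.05. Lfng, which tunes the choice of ligand, had a difference of 0.29 (adjusted p = 0.417), Rfng -0.12 and the O-fucosyltransferase gene Pofut1 -0.077. The same held for the 4 ubiquitin ligases that drive ligand endocytosis, by both measures, with Mib1 at 21.0 ± 4.82 and 26.2 ± 5.52 FPKM (-0.31, adjusted p = 0.382), Mib2 at -0.28 and Neurl1b at -0.059. It also held for the 7 inhibitors of the pathway. Dlk2, a membrane protein related to the ligands, had a difference of -0.56 ± 0.27 (adjusted p = 0.262), Dlk1 one of -0.19, and Fbxw7, which marks the intracellular domain for degradation, one of 0.23.

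Of 3 other membrane proteins described as Notch ligands, 0 were called by limma-trend and 2 had an unadjusted p under 0.05. Contactin 1 (Cntn1), described as a Notch ligand on the oligodendrocyte lineage, was far above the classic ligands, at 399.8 ± 38.8 FPKM in male and 490.0 ± 36.3 FPKM in female cultures without overlap (-0.30 ± 0.08, adjusted p = 0.0586). Dner stood at 50.0 ± 2.14 and 61.0 ± 5.96 FPKM, also without overlap (-0.28 ± 0.08, adjusted p = 0.0724). Cntn6 lay the other way, at 7.51 ± 1.07 and 6.28 ± 0.903 FPKM (0.22, adjusted p = 0.411).

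All 7 tested coactivator genes had a difference below 0, as had all 8 that cut the receptor and all 4 ubiquitin ligases. Some of these differences were close to 0, such as Snw1 (-0.0028) and Adam17 (-0.018), named after their values were seen. In each of the other pathway lists 57.1 to 75.0% lay below 0. Of all tested genes 50.7% lay below 0. No coactivator gene was called by limma-trend. Against 21.2% of all tested genes, 3 of the 7 had an unadjusted p under 0.05. They were the histone acetyltransferase gene Ep300 (4.70 ± 0.914 and 7.49 ± 1.89 FPKM, -0.56 ± 0.19, adjusted p = 0.114) and the Mastermind genes Maml2 (23.2 ± 2.59 and 30.4 ± 5.95 FPKM, -0.36 ± 0.13, adjusted p = 0.147) and Maml1 (-0.30 ± 0.13, adjusted p = 0.223). Female 1 was the highest culture for 5 of these 7 genes.

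Of 12 corepressor genes 1 was called. Tle3, a Groucho family corepressor used by Hes proteins, stood at 23.1, 21.3, 20.4 and 19.5 FPKM in the male cultures 1 to 4 and at 35.7, 25.9, 29.3 and 29.1 FPKM in the female cultures 1 to 4. The sexes did not overlap, and female 1 was again the top culture (21.0 ± 1.56 and 30.0 ± 4.11 FPKM, -0.48 ± 0.11, limma-trend adjusted p = 0.0223). The call was lost without male 2, male 3, male 4 or female 4 in turn (adjusted p from 0.0616 to 0.0700) and with library depth in the model (0.0642). Tle4, of the same family, had a difference of -0.38 ± 0.12 (adjusted p = 0.0960). A single member of this list, Tle1, had an unadjusted p under 0.05 towards male cultures. It was named after its value was seen, at 3.37 ± 0.349 and 2.14 ± 0.599 FPKM (0.50 ± 0.18, adjusted p = 0.143).

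The target genes that signalling through Rbpj turns on were low and varied between cultures of the same sex. Of 5, 3 passed the level filter, and by limma-trend none was called and none had an unadjusted p under 0.05. Hey1 stood at 3.79, 5.03, 7.24 and 5.45 FPKM in male and at 10.0, 4.83, 5.90 and 6.62 FPKM in female cultures (-0.29, interval -0.76 to 0.19, adjusted p = 0.498). Hes1 ranged from 0.516 to 2.83 FPKM (0.27, interval -0.39 to 0.94, adjusted p = 0.663) and Hes5 from 0.461 to 3.07 FPKM (-0.29, interval -1.02 to 0.44, adjusted p = 0.677). Hey2 and Heyl were at or below 0.264 FPKM in every culture.

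Other cell types were read from marker lists in the same cultures. OPC markers were abundant, with Olig1 at 915 ± 72.1 FPKM in male and 1001 ± 32.8 FPKM in female cultures. Of these 8 markers, 4 were called higher in female cultures and 0 in male ones (median -0.38). Gpr17, which also marks precursors committed to differentiate, had the smallest p (-1.66, limma-trend adjusted p = 0.00126). Pdgfra (-0.40), Sox10 (-0.35) and Tnr (-1.42) were called too, and Olig1, Olig2, Cspg4 and Ptprz1 were not. Of 7 tested markers of differentiating oligodendrocytes 2 were called higher in female cultures, Cnp and Myrf (median -0.057). Microglia markers, 10 of 10 found, summed to 35.0 to 49.6 FPKM in male and 144 to 178 FPKM in female cultures, and 8 were called higher in female ones. C1qb stood at 9.63 ± 0.938 and 33.5 ± 2.73 FPKM. Neuron markers summed to 339 to 378 FPKM in male and 313 to 437 FPKM in female cultures. Map2 was the most abundant of them (mean of 159 FPKM, and 244 FPKM in female 1). Of 9 tested, 4 were called higher in male cultures and 0 in female ones. Gad1 had the smallest p, at 19.2 ± 1.77 FPKM in male and 3.93 ± 1.12 FPKM in female cultures. Slc17a7 was at 0 in every culture. Astrocyte markers summed to 807 to 960 FPKM and 889 to 898 FPKM, most of it Fabp7, with Gfap at 0 to 4.99 FPKM, Aqp4 and Aldh1l1 at most at 0.273 and 0.443 FPKM, and none of 6 called by limma-trend (2 at an unadjusted p under 0.05). Mural markers summed to 5.38 to 6.18 FPKM in male and 1.26 to 3.41 FPKM in female cultures, with the contractile gene Tagln, the single tested one, called higher in male cultures (1.22 ± 0.25, limma-trend adjusted p = 0.0182). That call was lost in 4 of 16 alternatives, with a pseudocount of 0.1 (adjusted p = 0.0669), with library depth in the model (0.0645), without male 2 (0.0688) and without male 4 (0.0505).

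The libraries differed in depth. Between 12709 and 14014 genes were above 0, and depth relative to male 1, from the steps between low values, ran from 0.303 in female 1 and 0.366 in female 2 to 0.981 in female 3, with the other male libraries between 0.553 and 0.768. With this depth in the model, Notch1 stayed called (-0.56 ± 0.12, limma-trend adjusted p = 0.0412) and Dll1 was further from the threshold (-0.37, adjusted p = 0.172). The Y-linked genes Eif2s3y and Kdm5d were above 0 in each culture labelled male and at 0 in each labelled female.

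**Figure D4:**
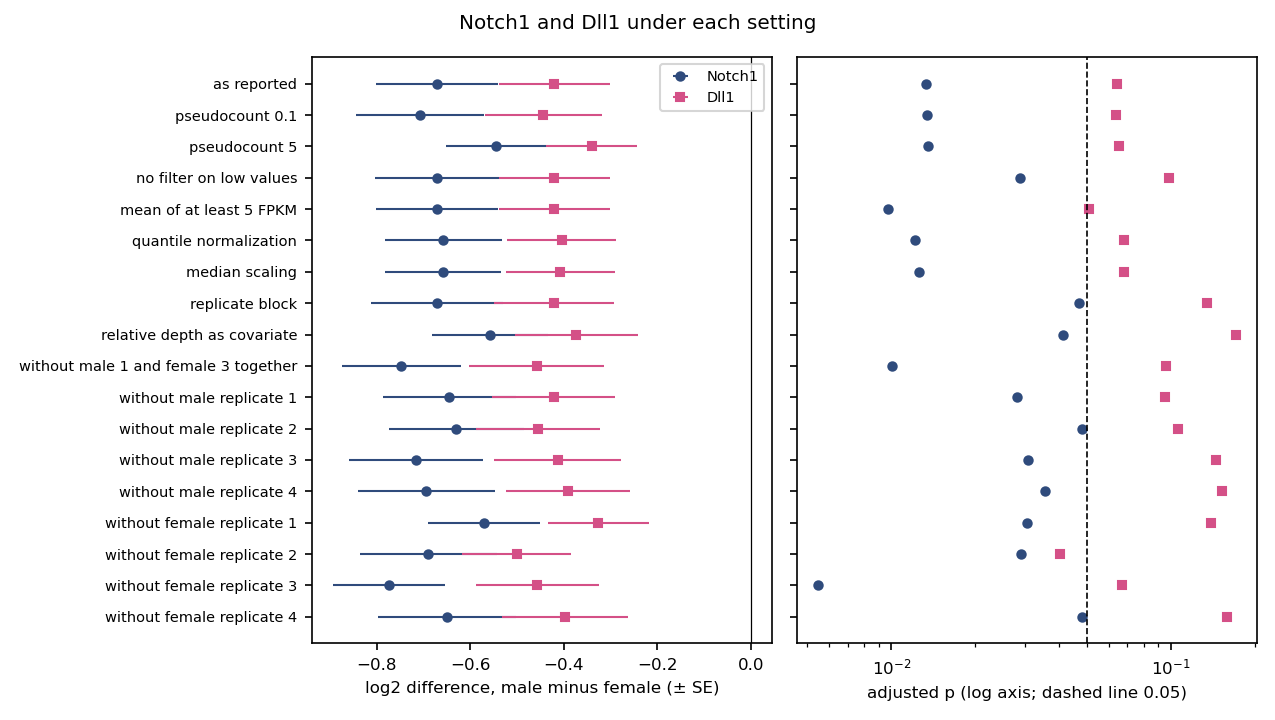
Left, log2 difference (male minus female, horizontal axis, bars ± SE) of Notch1 and Dll1 as reported and under 17 other settings; right, the adjusted p on a log axis with a dashed line at 0.05. Notch1 lies between -0.77 and -0.55 and left of the dashed line in each, and Dll1 lies between -0.50 and -0.33 and crosses the line once, without female 2.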

How the data were processed

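Strand-specific libraries (Agilent SureSelect) of RNA from 4 male and 4 female OPC cultures were run on a MiSeq, per the labels' protocols. The authors deposited FPKM values, 1 per gene and culture, per the file headers. The submitters' processing notes name Trimmomatic and FastQC. Aligner, quantifier, genome build, annotation and use of strand: not given in the sources used here. Since FPKM holds no counts, the absolute depth is unknown and no counting interval was given.

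Values were taken as log2(FPKM + 1), genes were kept if their mean reached 1 FPKM, and limma (3.58.1, R 4.3.3) was run, trend and robust options on, male against female, with no covariate. On simulated data it recovered 35.2% of genes with a log2 difference of 0.5, 81.2% at 1 and 97% at 2. A gene that was not called can therefore still differ. Of the simulated calls 4.05% were false. The simulated noise was drawn independently for each gene, with no depth differences between libraries. These shares therefore need not hold for the calls in the 8 cultures. The members and gene lists were chosen with earlier results of these data known. The text names all members and the called or up to 3 smallest-p genes of each pathway list. From each marker list it names the most abundant gene and the called gene with the smallest p. The most abundant microglia and endothelial markers were C1qa and Kdr (means of 24.3 and 0.118 FPKM over the 8 cultures). Some pathway genes, counted in their lists, are not reported here by name. Also named are the 3 genes nearest in profile to the member with the smallest p. Alternatives changed the pseudocount (0.1 and 5), the level filter (none, or a mean of at least 5 FPKM), the scaling, the model, the cultures and the threshold (0.1).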

Additional observations from a re-analysis of the deposited data

Results flagged for a closer look

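Of 94 sets of 4 same-sex values checked for a culture far from the other 3, 2 (2.13%) stood out, where about 1 in 20 would by chance. The second Rbpj row was listed at 0.467 FPKM in female 3 and at 0 in the other 3 female cultures. That value is 3 steps if the smallest value of this row is 1 step, in the deepest female library (relative depth 0.981). With the other 3 values at 0 it is flagged whatever its size, so the 1 in 20 does not hold for this row. The neuron marker Map2 was at 244 FPKM in female 1 and between 137 and 154 FPKM in the other 3 female cultures.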

How the results depend on the processing

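Notch1 kept its direction and its call in all 17 alternatives (log2 difference -0.77 to -0.55, limma-trend adjusted p 0.00546 to 0.0483). Called members numbered 2 at an adjusted p under 0.1 (Notch1 and Dll1) and 1 to 2 with each culture left out, 2 without female 2, and were 1 otherwise. Called pathway genes numbered 3 at a mean of at least 5 FPKM, 2 with quantile normalization, 0 with depth as a covariate (11 at an unadjusted p under 0.05), 5 without male 1 and female 3 together, 6 at an adjusted p under 0.1, and 0 to 4 with each culture left out. They were 0 without male 2, male 3 or male 4 (13, 12 and 12 at an unadjusted p under 0.05), 2 without male 1 or female 2, and 4 without female 3. Over all genes the 680 calls became 367 with depth as a covariate, 1149 at an adjusted p under 0.1, and 296 (without male 3) to 808 (without female 3) with 1 culture left out, leaving 315 calls when male 2 was omitted, 359 for male 4, 411 for female 1 and 318 for female 4.

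With the replicate number as a block there were 397 calls, with Notch1 still called (adjusted p = 0.0471) and Tle3 too. The numbers are only names in the labels, and deviations of same-numbered cultures from their sex means did not run together (correlation over genes -0.085, 0.077, -0.064 and 0.036 for numbers 1 to 4), so they were not taken as pairs. Signs turned for genes that were not called. Notch2 became -0.0024 with quantile normalization and -0.090 without male 1 and female 3 together, and lay between -0.11 (without female 3) and 0.11 (without female 4) with 1 culture left out, also below 0 without male 4 (-0.091) and female 1 (-0.0049). Over the same omissions Dll3 lay between -0.24 (male 1) and 0.017 (male 4; 0.0015 for male 2), Jag2 between -0.055 (female 2) and 0.12 (female 4), Neurl1b between -0.12 (male 4) and 0.024 (female 2; 0.020 for male 1), Rfng between -0.22 (female 2) and 0.0022 (female 4), and Map2 between -0.22 (female 4) and 0.058 (female 1). With depth as a covariate Neurl1b became 0.067, Hes5 0.12 and Map2 0.056, and Dlk1 became 0.069 without male 1 and female 3 together. The causes were not tested. Quantile and median scaling moved the median of all genes from -0.0038 to -0.0084 and 0.0091. The alternatives for the pathway median were added after the values were seen. Depth limits Notch3, Notch4, Dll4 and the second Rbpj row, whose values come to 48, 36, 7 and 8 steps over the 8 libraries.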

Other observations

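The 3 tested genes whose profile over the 8 cultures was nearest to that of Notch1, by the mean absolute difference between z scores of log2(FPKM + 1), were Ankrd44 (0.0813), the extracellular matrix gene Tnr (0.0925) and the growth factor gene Igf1 (0.110). Tnr is also among the OPC markers called higher in female cultures. Dll1 ranked at 431 of 11262 genes by this measure (0.396). Ankrd44 stood at 4.85, 5.30, 6.31 and 6.16 FPKM in the male cultures 1 to 4 and at 12.7, 9.50, 7.41 and 10.7 FPKM in the female cultures 1 to 4. Tnr stood at 4.81, 4.89, 6.53 and 6.62 FPKM in male and at 25.8, 17.1, 9.25 and 19.0 FPKM in female cultures. Igf1 stood at 0.603, 0.255, 0.941 and 0.866 FPKM in male and at 5.31, 3.56, 1.72 and 3.37 FPKM in female cultures. As for Notch1, female 1 was the highest and female 3 the lowest of the female cultures for each of the 3. Female 1 was also the shallowest and female 3 the deepest female library (relative depth 0.303 and 0.981). With depth in the model Ankrd44 was not called (limma-trend adjusted p = 0.0690). Tnr went from -1.42 to -1.12 and Igf1 from -1.39 to -1.16, and both stayed called. The 3 genes were picked for this likeness among 11262 genes in 8 cultures, so the likeness is a description only.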
